A study of Mus musculus with 23 samples.

Results

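Meningeal and perivascular fibroblasts were picked out of a droplet single-cell RNA survey of mouse brain by their own transcripts. A barcode was kept when it held at least 500 genes, at least 800 unique molecular identifiers (UMIs, counted RNA molecules) and at most 10% mitochondrial UMIs. A kept barcode was called a fibroblast, here also a member, when at least 3 of 7 genes (Dcn, Col1a1, Col1a2, Lum, Col3a1, Slc6a13, Pdgfra) had a UMI and their UMIs together exceeded those of 9 genes of other cell types (Cldn5, Flt1, Aqp4, Gja1, Cx3cr1, P2ry12, Mog, Acta2, Kcnj8). This gave 2686 fibroblasts, 1.08% of the 249715 barcodes that were kept out of 265025.

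Brain fibroblasts line the pia, arachnoid and dura and follow the larger vessels into the tissue along the perivascular space. They deposit fibrillar collagens, proteoglycans such as decorin and lumican, and basement membrane, and those of the leptomeninges carry solute transporters and are known as a source of retinoic acid, BMP and IGF signals to the underlying brain. Fibroblasts of the leptomeninges and of the perivascular space lie in contact with cerebrospinal or perivascular fluid.

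An antibody carrying the far-red dye Alexa Fluor 647 (AF647) was injected into the tail vein at 45 mg/kg, and the mice were perfused 24 hours later. ATV-TfR, an antibody transport vehicle whose Fc region binds the human transferrin receptor, was given to TfR mu/hu KI mice. ATV-CD98hc, whose Fc region binds human CD98 heavy chain, was given to CD98hc mu/hu KI mice. A control IgG was given to C57BL/6 mice. All 3 antibodies carry the LALAPG Fc substitutions, which weaken binding to Fc gamma receptors, and the age of all animals is given as 3.3 months in the sample labels and as 12 weeks in the series' design text. Treatment and genotype therefore coincide, and their effects cannot be told apart. Whole brains without olfactory bulbs, cerebellum, pons and medulla were dissociated with Actinomycin D and Anisomycin, and the cells of 1 male and 1 female were pooled. Each pool was sorted by AF647 into negative, low, medium and high bins with gates set on the tertiles of the positive ATV-TfR cells. About 30% of live cells were positive with ATV-TfR, about 20% with ATV-CD98hc and about 1% with control IgG, and bins of the same name therefore hold different shares of the live cells in each treatment. Every treatment had 2 pools, and 23 libraries in 12 groups were analysed, with 1 library (replicate 2) for the negative bin of control IgG and 2 for every other group.

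The libraries held between 526 and 20570 kept barcodes and between 1861238 and 90307818 UMIs. Fibroblasts numbered 7 to 340 per library, and 21 libraries had at least 20. The libraries left out of the gene comparisons were the 2 of the ATV-TfR high bin, with 7 and 10 members. The members of a library had a median of 3449 to 8285 UMIs. That depth moved with the bins: library medians were 3449 to 5033 in the negative bins, 7441 and 7481 in the ATV-TfR medium bin, 7636.5 and 7463.5 in the ATV-CD98hc high bin and 7169 and 6716 in the control IgG high bin. Scrublet doublet scores above percentile 94 of the kept barcodes of the same library were found for 157 members (5.85%). That cut passes a fixed share of kept barcodes in every library. Among members the share was 10.7 and 13.3% in the ATV-TfR negative and 0 and 0% in the medium libraries. With ATV-CD98hc it was 17.9 and 22.2% in the negative and 6.98 and 2.17% in the high libraries. With control IgG it was 0% in the negative and 4.92 and 7.78% in the high libraries. No barcode sequence was shared between members of different libraries, while 178 members had the sequence of a kept barcode outside the member class in another library.

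The values of the 7 genes chose the members and are given only as a description. A Dcn UMI was found in 96.7% of members, Col1a2 in 95.2%, Col1a1 in 89.2%, Pdgfra in 85.2%, Lum in 82.5%, Col3a1 in 62.9% and Slc6a13 in 32.0%. UMIs of all 7 genes were found in 421 members, and 968, 839, 278 and 180 members had 6, 5, 4 and 3 of the genes. The 180 members just inside the threshold had a median of 9 UMIs of these genes, against 35 over all members. Just outside it, 397 barcodes with UMIs of 2 of the genes had a median of 3. A further 408 barcodes had at least 3 of the genes but no more of their UMIs than of the 9 opposing genes (20 had equal numbers), and 43 members passed by 1 or 2 UMIs. Of the marker genes given for the label, Dcn, Col1a1 and Lum marked most members, but Slc6a13 was missing from most of them.

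Slc6a13, a transporter of GABA and taurine in the leptomeninges, and Alpl, the tissue-nonspecific alkaline phosphatase used as a stain of the arachnoid barrier, hardly met in the same barcode. A Slc6a13 UMI was found in 860 members and an Alpl UMI in 1704. Only 34 members had both and 156 had neither. After every barcode was thinned to 2000 UMIs, which left out 96 shallower members, the numbers were 757, 1521, 11 and 323 of 2590. In microglia, which should lack both genes, 0.356% of barcodes had a Slc6a13 UMI and 0.528% an Alpl UMI at a median of 2585 UMIs per barcode, against 5923 in members. Endothelial barcodes had an Alpl UMI in 28.8% and a Slc6a13 UMI in 0.965% of cases, and barcodes of the pericyte class had a Slc6a13 UMI in 32.2%. Astrocyte barcodes had an Alpl UMI in 16.9% and a Slc6a13 UMI in 0.237% of cases. The 826 members with Slc6a13 and no Alpl UMI had a median of 4550.5 UMIs, and the 1670 with Alpl and no Slc6a13 UMI had 6546.

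The 250 bases upstream of the RefSeq start of these genes, and of Aldh1a2 and Bmp6 (the retinoic acid and BMP genes described below that follow Slc6a13), are shown because the results turn on these members. They are RefSeq sequences of build GRCm38.p6, 5′ to 3′ on the strand of the gene: Slc6a13 chr6:121300038-121300287 (plus strand), Alpl chr4:137796385-137796634 (minus strand), Aldh1a2 chr9:71215539-71215788 (plus strand) and Bmp6 chr13:38345466-38345715 (plus strand). Capitals mark a T-box core (AGGTGT, here on the opposite strand). T-box, forkhead and retinoic acid receptor motifs were searched because Tbx18, Foxc1 and Aldh1a2 are genes of these cells.
Slc6a13: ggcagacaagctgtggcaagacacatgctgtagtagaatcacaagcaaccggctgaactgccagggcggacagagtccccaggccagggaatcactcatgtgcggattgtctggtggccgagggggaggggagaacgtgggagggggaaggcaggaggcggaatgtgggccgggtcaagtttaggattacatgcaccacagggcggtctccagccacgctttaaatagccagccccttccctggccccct
Alpl: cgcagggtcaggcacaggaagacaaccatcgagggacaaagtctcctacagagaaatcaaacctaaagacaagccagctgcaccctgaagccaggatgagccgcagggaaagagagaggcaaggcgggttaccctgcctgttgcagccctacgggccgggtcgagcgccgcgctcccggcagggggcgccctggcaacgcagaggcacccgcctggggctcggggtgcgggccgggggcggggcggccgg
Aldh1a2: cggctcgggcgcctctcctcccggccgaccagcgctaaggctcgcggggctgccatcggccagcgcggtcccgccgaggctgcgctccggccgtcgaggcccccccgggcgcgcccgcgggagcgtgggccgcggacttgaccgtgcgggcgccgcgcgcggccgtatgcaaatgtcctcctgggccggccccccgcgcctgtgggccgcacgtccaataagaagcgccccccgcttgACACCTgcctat
Bmp6: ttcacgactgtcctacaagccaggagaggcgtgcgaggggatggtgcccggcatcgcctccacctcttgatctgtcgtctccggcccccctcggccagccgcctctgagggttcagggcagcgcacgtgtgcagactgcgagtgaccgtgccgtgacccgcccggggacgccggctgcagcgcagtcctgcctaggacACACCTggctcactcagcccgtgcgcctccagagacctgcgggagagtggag

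In windows of 250 bases before to 50 bases after the start, searched on both strands, the forkhead core (TGTTTAC) was in 3.55% of all 27025 promoters, the T-box core in 13.9% and the core of retinoic acid receptor sites (AGGTCA) in 16.0%. The T-box and retinoic acid cores begin alike and differ at the end, so that a match to one is not a match to the other. Aldh1a2 and Bmp6 each had 1 T-box core, and Slc6a13 and Alpl had none of the 3 motifs. Of 200 promoters of genes that were lower in the brightest bin of every treatment, described below, 3.0%, 10.5% and 8.0% held the 3 motifs in that order, and of 153 promoters of genes higher in all of them 0.654%, 9.15% and 13.1%. A match is a description of letters and says nothing of a factor.

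The members with Slc6a13 and those with Alpl differed in many genes that the rule did not use. Summed over members, and given in CPM (the gene's UMIs as a part of all UMIs of the set, scaled to 1e6, not divided by gene length, so that a level is compared only within a gene), Slc6a20a was at 1078 against 2.29 in the Alpl set and Slc22a6 at 372 against 0.44. Both are membrane transporters, of proline and of organic anions. Aldh1a2, which makes retinoic acid, was at 435 against 2.91, and Ptgds, which makes prostaglandin D2, at 51213 against 470. Lama1 and Col15a1, genes of basement membrane listed for pial and perivascular fibroblasts, were at 872 against 156 and at 542 against 32.5. The rest of that list was divided. S100a6 (801 against 30.0) and Ngfr (4.04 against 1.23) were higher in the Slc6a13 set. Lama2 (634 against 845), Cemip (1015 against 1238) and Rdh10 (50.1 against 92.5) were higher in the Alpl set. The Alpl set instead carried Mgp, an inhibitor of calcification, at 6106 against 205, Cdh11, a cadherin of mesenchyme, at 1068 against 56.1 and Tcf21, a transcription factor of fibroblasts, at 503 against 2.14. Foxc1 and Zic1, transcription factors of the meninges, were nearer each other in both sets (349 and 203 for Foxc1, 494 and 414 for Zic1). These pairs of values come from barcodes chosen by 2 genes over all libraries and have no test.

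All 4 markers given for the label were in the Slc6a13 set, while the Alpl set had 3 of the 4, Dcn (2517 CPM), Lum (1087 CPM) and Col1a1 (542 CPM, against 741 in the Slc6a13 set), with Alpl, Mgp, Cdh11 and Tcf21. It was chosen to lack the fourth, Slc6a13. In the text below they are called Slc6a13 fibroblasts and Alpl fibroblasts, by their genes. Both kinds were in every treatment, and their balance followed the AF647 bin. In the negative bins, Slc6a13 fibroblasts were 90.0% ± 0.58 (SD, n = 2) of members with ATV-TfR, 90.0% ± 6.85 with ATV-CD98hc and 87.8% in the single control IgG library. In the low bins they were 11.2% ± 1.84 with ATV-TfR and 4.87% ± 1.89 with control IgG, but 76.1% ± 2.19 with ATV-CD98hc. The ATV-CD98hc share was 36.7% ± 5.23 in the medium and 11.3% ± 2.13 in the high bin, against 4.73% ± 1.03 and 2.32% ± 1.19 in the medium bins of ATV-TfR and control IgG. The Alpl fibroblasts made up 93.0% ± 1.98, 92.8% ± 1.04 and 84.8% ± 5.24 of members in the low, medium and high bins of control IgG. With ATV-CD98hc they were 14.8% ± 2.53, 57.4% ± 5.89 and 73.8% ± 7.49 in these bins. The 17 members of the ATV-TfR high bin had 29.3% ± 1.01 and 55.7% ± 22.2. Slc6a13 is a rule gene, and these shares are a description.

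**Figure D1:**
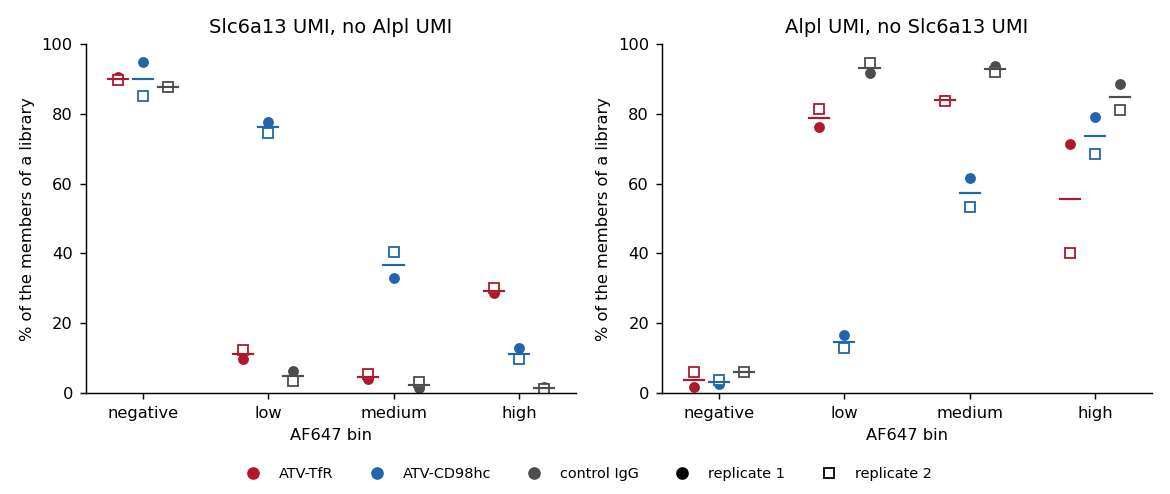
Share of the fibroblasts of a library with a Slc6a13 UMI and no Alpl UMI (left) and with an Alpl UMI and no Slc6a13 UMI (right), in percent, by AF647 bin. Each marker is 1 library, colours are treatments and bars are group means. The ATV-CD98hc libraries pass from 90.0% to 11.3% over 4 bins, while those of ATV-TfR and control IgG are at 11.2% and 4.87% in the low bin.

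Clustering of the members (Leiden, 13 clusters at the main resolution, 10 and 19 at 0.5 and 2 times that resolution) is likewise a description. Cluster 0 (560 members) was led by Edn3, Slc6a13, Col15a1, Fbln2, Apod and Aldh1a1 and made up 67.4%, 68.2% and 59.8% of the members of the 3 negative bins. Its share with ATV-CD98hc was 47.8% in the low, 22.0% in the medium and 6.18% in the high bin, and with control IgG it was 2.44%, 2.20% and 1.33%. Cluster 1 (113 members) was led by the ligands Wnt4 and Wnt6, the channel gene Trpm3 and Cyp26b1, which breaks down retinoic acid. It held 9.55 and 12.6% of the members of the ATV-TfR negative libraries (replicates 1 and 2). With ATV-CD98hc it held 10.3 and 3.70% in the negative, 7.91 and 10.3% in the low and 2.20 and 11.01% in the medium libraries, which overlap, and with control IgG 7.32% in the negative library and 2.92% or less in each of the others. Cluster 5 (770 members), with Crabp1, Nkain3 and Dach1 in front, held 41.2 and 67.1% of control IgG members in the low, 23.8 and 57.7% in the medium and 22.95 and 38.9% in the high libraries, with overlap between neighbouring bins, and 2.96% or less in each negative library. Cluster 8 (429 members) was led by Lpl, Tcf21, Igfbp7 and Mfap4, and held 30.7 and 25.0% of ATV-TfR members in the low and 34.0 and 27.3% in the medium libraries. With control IgG its pools lay apart, at 37.6 and 11.8% in the low and 47.5 and 8.30% in the medium bin.

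Cluster 6 (222 members) had Postn, the matrix protein periostin, and the BMP modulator Bmper in front. It stood at 0% of every negative library, at 5.11 and 8.82% of control IgG members in the low, 15.3 and 22.9% in the medium and 22.95 and 33.3% in the high libraries, and at 0.719 and 0%, 5.49 and 0.917%, and 16.3 and 9.78% of ATV-CD98hc members in the same bins. Cluster 11 (60 members) carried Sfrp4, a secreted Wnt inhibitor, with Tagln, Col14a1 and Epyc. Cluster 4 (111 members) had the most particular leading genes: Ccn3 (2436 CPM against 12.6 in the other members), Prg4 (1720 against 6.66), Rspo3 (1081 against 11), the bicarbonate transporter Slc4a10 (1910 against 38.9) and the organic cation transporter Slc47a1 (994 against 11.1). Slc47a1 was listed as an arachnoid marker. Cluster 10 (48 members) was led by Crispld2 and the actin-severing protein gene Gsn.

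The remaining 5 clusters were led by markers of other cell types: astrocytes (cluster 7, 182 members), border macrophages (cluster 9, 68), endothelium (cluster 12, 55), pericytes (cluster 2, 47) and oligodendrocytes (cluster 3, 21). Together they held 373 members, between 4.83% (control IgG medium) and 41.2% (ATV-TfR high) of a group. Clusters 7, 9 and 12 were also the deepest, with a median of 8514.5, 8530.5 and 8773 UMIs. All results below were also computed without these 373 members, an alternative chosen after the clusters were seen.

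**Figure D2:**
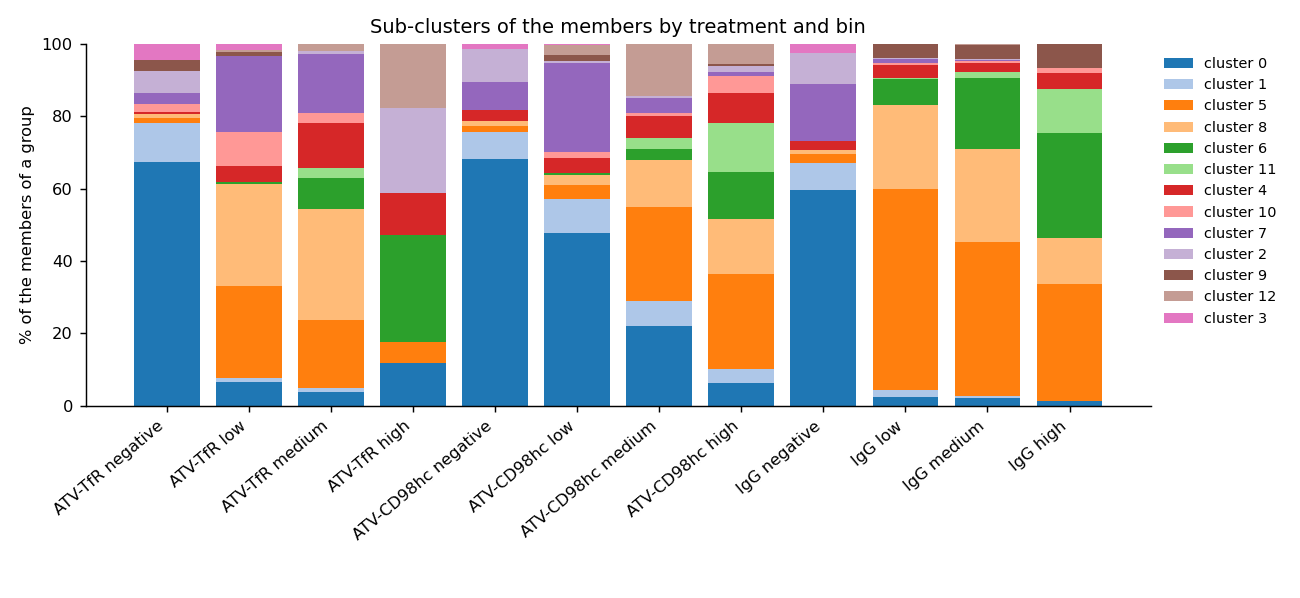
Share of each sub-cluster among the fibroblasts of a group of treatment and bin, in percent (stacked bars, libraries of a group joined). Cluster 0 (dark blue) fills most of the 3 negative bins and shrinks over the ATV-CD98hc bins, while clusters 5, 8 and 6 (oranges and dark green) fill the bright bins, and clusters 7, 2, 9, 12 and 3 at the top are those led by markers of other cell types.

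Fibroblasts were a very different share of the sorted cells in the 3 treatments. With control IgG they were 0.674% of kept barcodes in the negative library (exact 95% binomial interval 0.536 to 0.836%, counting error only). They were 10.5% ± 2.41 in the low, 30.5% ± 1.57 in the medium and 12.0% ± 0.578 in the high bin (SD, n = 2). With ATV-TfR the share went the other way, from 2.00% ± 0.034 through 0.534% ± 0.129 and 0.334% ± 0.031 to 0.0463% ± 0.0148. With ATV-CD98hc it stayed between 0.521% ± 0.013 (medium) and 0.851% ± 0.115 (low). A slope of the logit share over bins of -1.17 was found for ATV-TfR (two-sided exact permutation of bin labels, p = 0.000794, the smallest that 2520 arrangements allow, adjusted p = 0.00238 over 6 trends). The slope was -0.02 for ATV-CD98hc (exact permutation, adjusted p = 0.813) and 0.81 for control IgG (exact permutation of 630 arrangements, adjusted p = 0.194). With 1 ATV-TfR pool left out the slope was -1.09 or -1.26, and 4 libraries cannot pass the threshold.

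Shares of sorted cells depend on the other cells in the bin, and endothelial barcodes were most of the high bins of both transport vehicles. Among barcodes outside the endothelial class, fibroblasts with ATV-CD98hc were 0.692% ± 0.142, 0.969% ± 0.133, 3.44% ± 0.06 and 11.5% ± 0.066 from negative to high. Both pools lay close together in every bin, and the slope was 1.007 (exact permutation, p = 0.000794, adjusted p = 0.00238). With ATV-TfR the same shares were 2.03%, 0.545%, 0.402% and 0.748% (slope -0.34, exact permutation, adjusted p = 0.195). With control IgG they were 0.872%, 23.7%, 32.1% and 12.2% (slope 0.58, exact permutation, adjusted p = 0.379).

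A count model of barcodes per class on that denominator (edgeR quasi-likelihood test, adjusted over classes) gave a log2 difference of 4.07 ± 0.30 (SE) between the ATV-CD98hc high and negative bins (adjusted p = 1.13e-08). It was 3.81 ± 0.39 with control IgG (adjusted p = 2.38e-07) and -1.51 ± 0.33 with ATV-TfR (adjusted p = 0.000706). The ATV-TfR difference was below that of ATV-CD98hc by 5.58 ± 0.44 (adjusted p = 2.42e-08) and below that of control IgG by 5.32 ± 0.50 (adjusted p = 1.24e-07). ATV-CD98hc and control IgG differed by 0.26 ± 0.43 (adjusted p = 0.719). The denominator moves these values: over all kept barcodes the ATV-CD98hc difference was 0.17 and it lay 3.98 below that of control IgG, while the ATV-TfR difference was -5.41 and its difference from control IgG -9.57. The cells were sorted, so shares describe bins and not the brain.

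**Figure D3:**
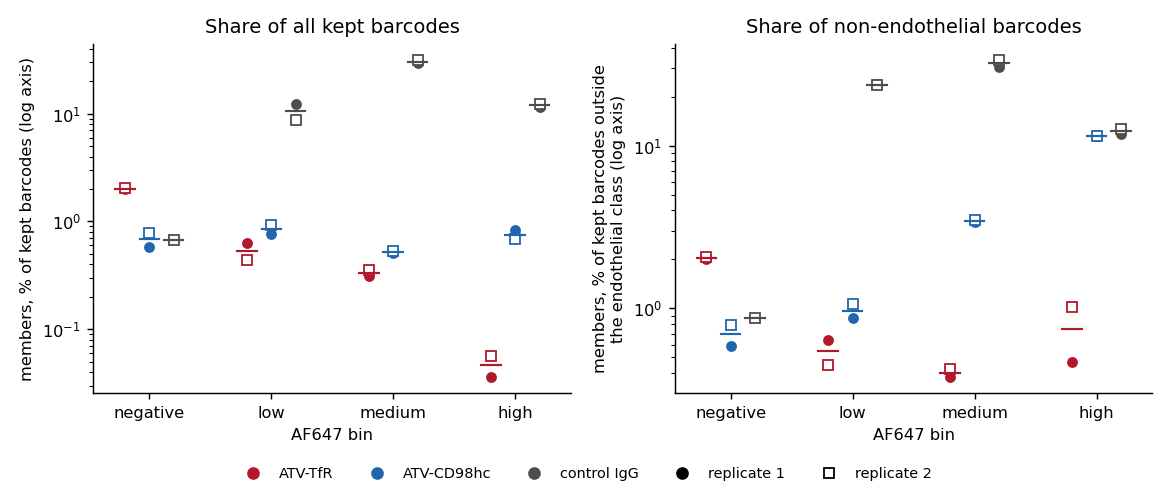
Fibroblasts as a percent of all kept barcodes (left) and of kept barcodes outside the endothelial class (right) by AF647 bin, on log axes. Each marker is 1 library, colours are treatments and bars are group means. On the left the ATV-TfR libraries fall from 2.00% to 0.0463%. On the right the ATV-CD98hc libraries climb from 0.692% to 11.5%.

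The genes of the fibroblasts were compared between the brightest bin with enough members and the negative bin of each treatment, on UMIs summed per library (edgeR quasi-likelihood test, Benjamini-Hochberg adjustment over 11977 genes, called below 0.05). The brightest bin was the high bin with ATV-CD98hc and control IgG and the medium bin with ATV-TfR. With ATV-TfR 1467 genes were called (12.2% of those tested), 817 higher (6.82%) and 650 lower (5.43%). With ATV-CD98hc 903 were called (7.54%), 407 higher (3.4%) and 496 lower (4.14%). With control IgG 1384 were called (11.6%), 526 higher (4.39%) and 858 lower (7.16%). The median change over all genes was -0.02, 0.00 and 0.00 on the log2 scale. With 1 pool of the treatment left out fewer were called: 456 and 524 without ATV-TfR replicate 1 and 2, 241 and 493 without ATV-CD98hc replicate 1 and 2, and 888 without control IgG replicate 1. The 3 comparisons share no library: 224 genes were higher in all of them, which is 27.4%, 55.0% and 42.6% of the lists in the order above, and 263 were lower in all, 40.5%, 53.0% and 30.7%. Of the 224, 122 (54.5%) had their highest level in the fibroblast class, and of the 263, 64 (24.3%) had it there and 63 (24.0%) in pericytes. In the full lists fibroblasts had 29.7%, 40.5% and 38.0% of the higher and 18.6%, 17.1% and 10.3% of the lower genes. Astrocytes had 28.5%, 6.39% and 2.47% of the higher and 5.23%, 21.0% and 33.1% of the lower genes. The shares of these classes over all genes tested are not given here.

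Each comparison joins the change in the balance of Slc6a13 and Alpl fibroblasts with any change inside either kind. It could not be fitted within 1 kind, since in every treatment 1 of the 2 bins had under 20 such members in a library. Fewer cells of a type and less RNA per cell cannot be told apart in these sums, and their part in the changes below was not tested. The single negative library of control IgG is assumed to vary like the other groups. List counts below leave out the 7 rule genes and the 9 opposing genes, whose UMIs chose the members. Counts over all genes hold those of them that were called, 10, 6 and 9 in the order above. Each list count below is to be read beside the shares over all genes. These were 6.82%, 3.4% and 4.39% higher and 5.43%, 4.14% and 7.16% lower, in the same order.

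More of the listed transporter genes were lower than higher in the bright bins. Of 17 solute carriers, 9, 7 and 7 were lower in the bright bin of ATV-TfR, ATV-CD98hc and control IgG, and 5, 1 and 0 were higher. The median log2 change was -1.46, -0.99 and -1.5. Slc6a20a was at 953 and 936 CPM in the negative ATV-TfR libraries and at 42.2 and 41.9 in the medium bin (log2 change -4.49 ± 0.36, adjusted p = 3.58e-08). With ATV-CD98hc it went from 1302 and 748 through 759 and 939 (low) and 437 and 405 (medium) to 95.01 and 89.44 in the high bin (-3.48 ± 0.32, adjusted p = 3.01e-07). With control IgG it was at 894 in the negative library, 54.1 and 33.9 in the low bin and 0 and 6.28 in the high bin (-7.83 ± 0.52, adjusted p = 8.82e-10). No library of a bright bin overlapped a negative one, and the ATV-CD98hc low libraries lay within the range of the negative ones while the other low libraries did not.

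Slc22a8, an organic anion transporter, was at 449 and 395 CPM against 22.5 and 18.6 with ATV-TfR (-4.36 ± 0.37, adjusted p = 5.23e-08). With ATV-CD98hc it was at 425 and 491 against 45.2 and 47.7 (-3.29 ± 0.32, adjusted p = 4.94e-07), and with control IgG at 365 against 0 and 6.28 (-6.54 ± 0.50, adjusted p = 4.95e-09). This gene is no fibroblast marker by itself: 72.8% of endothelial barcodes and 63.9% of those of the pericyte class, whose markers were also lower in the bright bins, had a UMI of it, against 24.9% of members. Its neighbour Slc22a6, highest in fibroblasts, behaved alike, with changes of -4.09, -4.38 and -6.16.

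Neighbouring genes were among the lower transporters. Slc22a8 (chr19:8591254-8611835) and Slc22a6 (chr19:8618039-8628299) lie side by side in GRCm38, as do Slc6a13 (chr6:121300227-121337733) and Slc6a12 (chr6:121343076-121365775), the betaine and GABA transporter. These are GENCODE M21 coordinates, whose start of Slc6a13 lies within the stretch shown above as upstream of the RefSeq start. Slc6a12 had 0 UMIs in the ATV-TfR medium libraries against 58.9 and 72.9 CPM in the negative ones, at least 16.4-fold lower when 3 UMIs over the group are taken as the limit. Slc6a13 itself, a rule gene given without a test, was at 2295 and 2017 CPM against 47.9 and 102. Slc13a4, a sulfate transporter, changed by -5.38 ± 0.55 with ATV-TfR (adjusted p = 4.31e-07). Among the 5 carriers that were higher with ATV-TfR was Slc47a1, at 24.4 and 0 CPM in the negative and 163 and 116 in the medium bin (3.29 ± 0.65, adjusted p = 0.00101). With ATV-CD98hc it was at 51.9 and 60.4 against 72.4 and 103, which did not pass (adjusted p = 0.704).

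**Figure D4:**
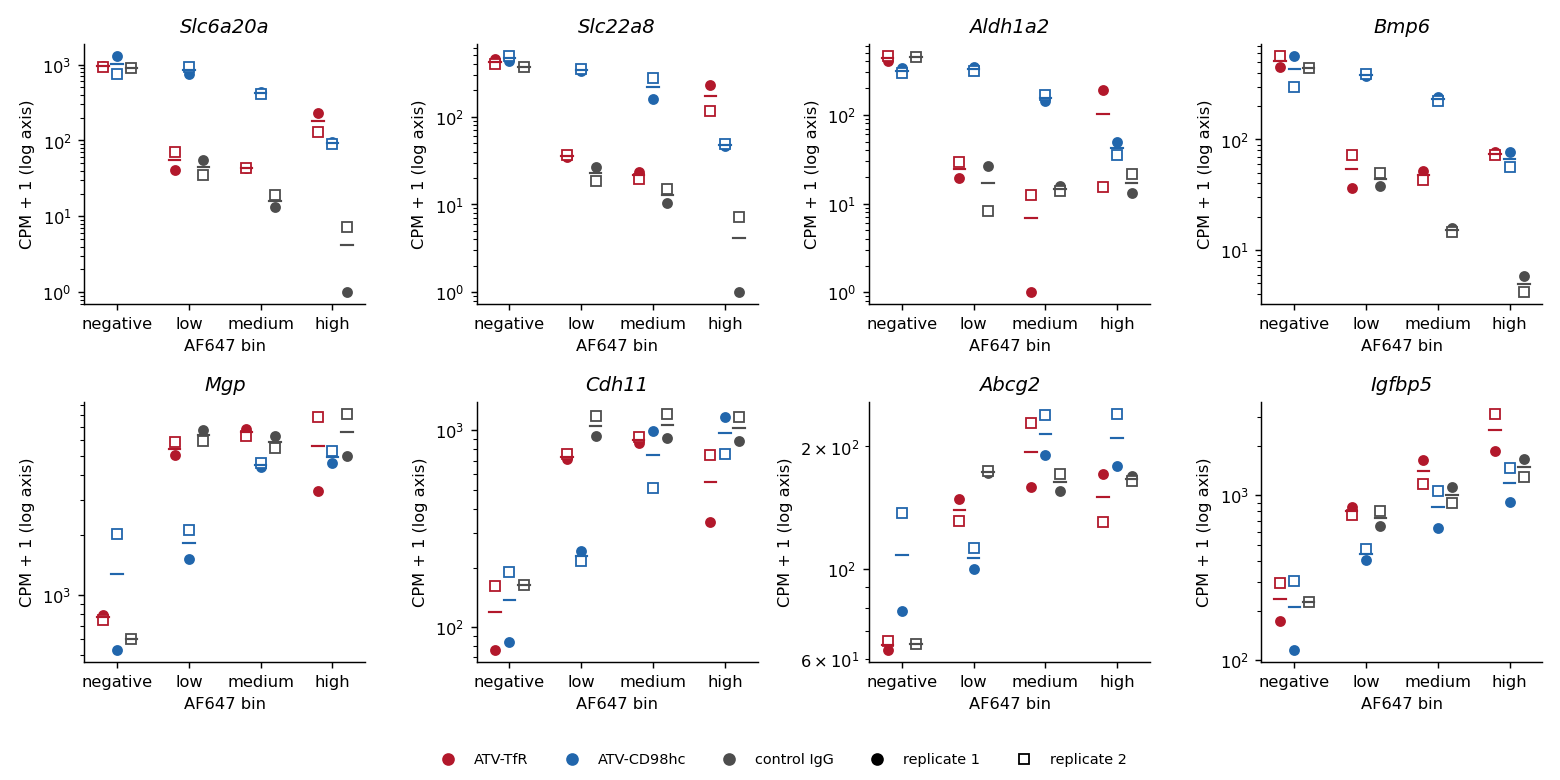
Level of 8 genes in the fibroblasts of each library (CPM + 1, log axis) by AF647 bin, with 1 panel per gene, colours for treatments and bars for group means. Slc6a20a, Slc22a8, Aldh1a2 and Bmp6 are high in all negative bins and are lower from the low bin on with ATV-TfR and control IgG and step down from the low to the high bin with ATV-CD98hc, and Mgp, Cdh11, Abcg2 and Igfbp5 are higher in the bright bins.

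Basement membrane genes called were also lower more often than higher. Of 19 tested, 11, 8 and 7 were lower in the bright bin and 2, 1 and 1 higher, with medians of -0.95, -0.73 and -0.96. Col15a1 was at 597 and 610 CPM in ATV-TfR negative libraries and at 45.0 and 34.9 in the medium bin (-3.92 ± 0.34, adjusted p = 6.79e-08). It changed by -2.72 ± 0.30 with ATV-CD98hc and by -4.24 ± 0.37 with control IgG. Lama1, the laminin chain detected in 58.1% of members and in 0.735% or less of the barcodes of any other class, was at 928 and 806 against 95.7 and 81.4 with ATV-TfR (-3.30 ± 0.36, adjusted p = 8.97e-07). With ATV-CD98hc it was at 1297 and 642 against 173 and 137, and with control IgG at 924 against 84.1 and 97.3. Col4a5, Lamc1 and Col4a1, chains of type IV collagen and laminin, were lower in all 3 treatments, with log2 changes from -3.33 to -1.80. Of 6 pial and perivascular genes, Col15a1, Lama1 and S100a6 were called in every treatment, each time lower. Lama2, Cemip and Rdh10 of the same list were higher in the Alpl set than in the Slc6a13 set, as given above.

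Of 5 dural genes tested 3 were called, Mgp, Cdh11 and Fxyd5, and they were higher in every bright bin. Dkk2, Smoc2 and Matn4, also on the list, were low and went the other way between the 2 sets. They were at 11.2, 19.25 and 4.28 CPM in the Slc6a13 set against 0.97, 12.2 and 0.79 in the Alpl set. Mgp is no fibroblast marker by itself. A UMI of it was in 68.0% of pericyte-class and 64.8% of smooth muscle barcodes, against 73.0% of members. Mgp was at 792 and 752 CPM with ATV-TfR negative and at 6828 and 6243 in the medium bin (3.08 ± 0.39, adjusted p = 6.33e-06), and at 603 against 4962 and 8124 with control IgG (3.44 ± 0.53, adjusted p = 9.50e-05). With ATV-CD98hc its negative libraries differed, at 529 and 2025, and the high bin was at 4580 and 5281 (1.97 ± 0.38, adjusted p = 0.00161). Cdh11 rose by 2.65 to 2.94 in the 3 treatments. It too had a UMI in other classes, in 45.3% of astrocyte, 24.3% of oligodendrocyte and 21.9% of pericyte-class barcodes, against 70.6% of members. Of 7 arachnoid barrier genes 4, 2 and 3 were higher and none lower. Dpp4 and Krt18 of this list were low and went the other way between the 2 sets. They were at 13.3 and 2.61 CPM in the Slc6a13 set against 0.97 and 0.71 in the Alpl set. Cdh1 was also low, at 4.28 against 5.38. Cldn11 (29.9 against 110), Abcb1a (24.95 against 36.8) and Abcg2 (71.0 against 177) were higher in the Alpl set. Alpl was at 28.4 and 161 CPM against 1197 and 1369 with ATV-TfR (3.82 ± 0.46, adjusted p = 3.80e-06), at 20.8 and 106 against 1114 and 1219 with ATV-CD98hc (4.35 ± 0.57, adjusted p = 1.81e-05), and at 133 against 1394 and 1076 with control IgG (3.21 ± 0.61, adjusted p = 0.000758). The efflux pump gene Abcg2 rose by 1.61, 1.02 and 1.36, but is highest in endothelium, whose markers are given below. Without the clusters led by other cell types, Fxyd5 (1.66, adjusted p = 0.0907) and Abcg2 (0.65, adjusted p = 0.328) were not called with ATV-CD98hc. The list of 5 arachnoid fibroblast genes went the other way, with 3, 2 and 2 lower (Aldh1a2 and Ptgds in each treatment) and 1, 0 and 0 higher (Slc47a1), and medians of -1.71, -1.12 and -1.32. Ptgds was also found in 96.5% of choroid epithelial and 93.1% of oligodendrocyte barcodes, against 32.3% of members. Without the clusters led by other cell types it was not called with ATV-CD98hc (-1.65, adjusted p = 0.259). These layer names are those of the lists, and no position in the tissue was measured.

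Genes of retinoic acid synthesis, breakdown and transport were called in both directions. Aldh1a2, a synthesis enzyme, was at 406 and 461 CPM against 0 and 11.6 with ATV-TfR (-6.06 ± 0.53, adjusted p = 7.50e-08), at 332 and 295 against 48.3 and 34.3 with ATV-CD98hc (-2.93 ± 0.40, adjusted p = 2.98e-05) and at 444 against 12.0 and 20.4 with control IgG (-4.70 ± 0.47, adjusted p = 2.74e-07). Aldh1a1, another synthesis enzyme, changed by -2.51, -3.06 and -6.03, and the degrading enzyme gene Cyp26b1 was also lower with ATV-CD98hc (adjusted p = 0.0126). Dhrs3, which turns retinal back to retinol, was higher by 2.11 ± 0.23, 1.68 ± 0.28 and 1.23 ± 0.29. Crabp1, a retinoic acid carrier, had 0 UMIs in ATV-CD98hc negative libraries and was at 66.4 and 71.5 CPM in the high bin, at least 7.57-fold higher. It did not pass with control IgG (0.62, adjusted p = 0.651). Of 14 genes on the list, 4, 3 and 4 were higher and 2, 3 and 2 lower.

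Genes of TGF-beta and BMP signalling were called in both directions. Of 27, 7, 5 and 6 were higher and 6, 5 and 3 lower. The ligand gene Bmp6 was at 454 and 564 CPM against 50.7 and 41.9 with ATV-TfR (-3.46 ± 0.33, adjusted p = 1.87e-07), at 571 and 295 against 75.4 and 55.1 with ATV-CD98hc (-2.75 ± 0.31, adjusted p = 3.69e-06), and at 446 against 4.81 and 3.14 with control IgG (-6.81 ± 0.51, adjusted p = 3.79e-09). Bmp7, another ligand gene, changed by -4.06, -3.33 and -4.79. The ligand gene Gdf10 was called with ATV-TfR only, where it was higher by 3.28 ± 0.77 (adjusted p = 0.00477). The target genes Id2 and Id3, inhibitors of DNA binding, were higher: Id2 by 3.46 ± 0.34, 4.21 ± 0.57 and 2.02 ± 0.42, and Id3 by 1.70 ± 0.26, 2.19 ± 0.28 and 2.25 ± 0.35. Ccn2, a matrix-associated growth factor, fell by 2.56 ± 0.31 with ATV-TfR, and with control IgG its change was -0.64 (adjusted p = 0.308).

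In the insulin-like growth factor axis the ligand gene Igf2 and the binding protein gene Igfbp2 were lower and 3 other binding protein genes were higher. Igf2 was at 1740 and 1923 CPM against 67.6 and 109 with ATV-TfR (-4.35 ± 0.43, adjusted p = 3.02e-07), at 1421 and 604 against 303 and 207 with ATV-CD98hc (-2.01 ± 0.38, adjusted p = 0.00136) and at 1527 against 57.7 and 111 with control IgG (-4.13 ± 0.46, adjusted p = 1.07e-06). Igfbp2 changed likewise (-3.12, -1.72 and -2.06). Igfbp4, Igfbp5 and Igfbp7 were higher in all 3 treatments. Igfbp5 was at 173 and 293 CPM against 1633 and 1162 with ATV-TfR, at 114 and 302 against 903 and 1458 with ATV-CD98hc and at 225 against 1664 and 1287 with control IgG (changes of 2.59, 2.56 and 2.71). In every treatment 3 of 10 genes were higher and 3 lower.

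Matrix genes were called in both directions. Among 26 proteoglycan and matrix glycoprotein genes, 4, 3 and 4 were higher and 6, 5 and 6 lower. Fmod, the proteoglycan fibromodulin, was lower (-4.48, -3.35 and -4.29), and so was Fbln2, fibulin 2 (-3.72, -2.98 and -4.07). Thbs1, thrombospondin 1, was higher by 2.49 ± 0.34, 3.42 ± 0.46 and 2.83 ± 0.47. Among 13 fibrillar and associated collagens, 4, 3 and 3 were higher, with Col14a1 called in each treatment (4.54, 5.26 and 3.29), and 2, 3 and 2 lower. Of 22 matrix-processing genes 2, 2 and 3 were higher and 4, 2 and 3 lower. Over all genes 6.82%, 3.4% and 4.39% were higher and 5.43%, 4.14% and 7.16% lower.

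**Figure D5:**
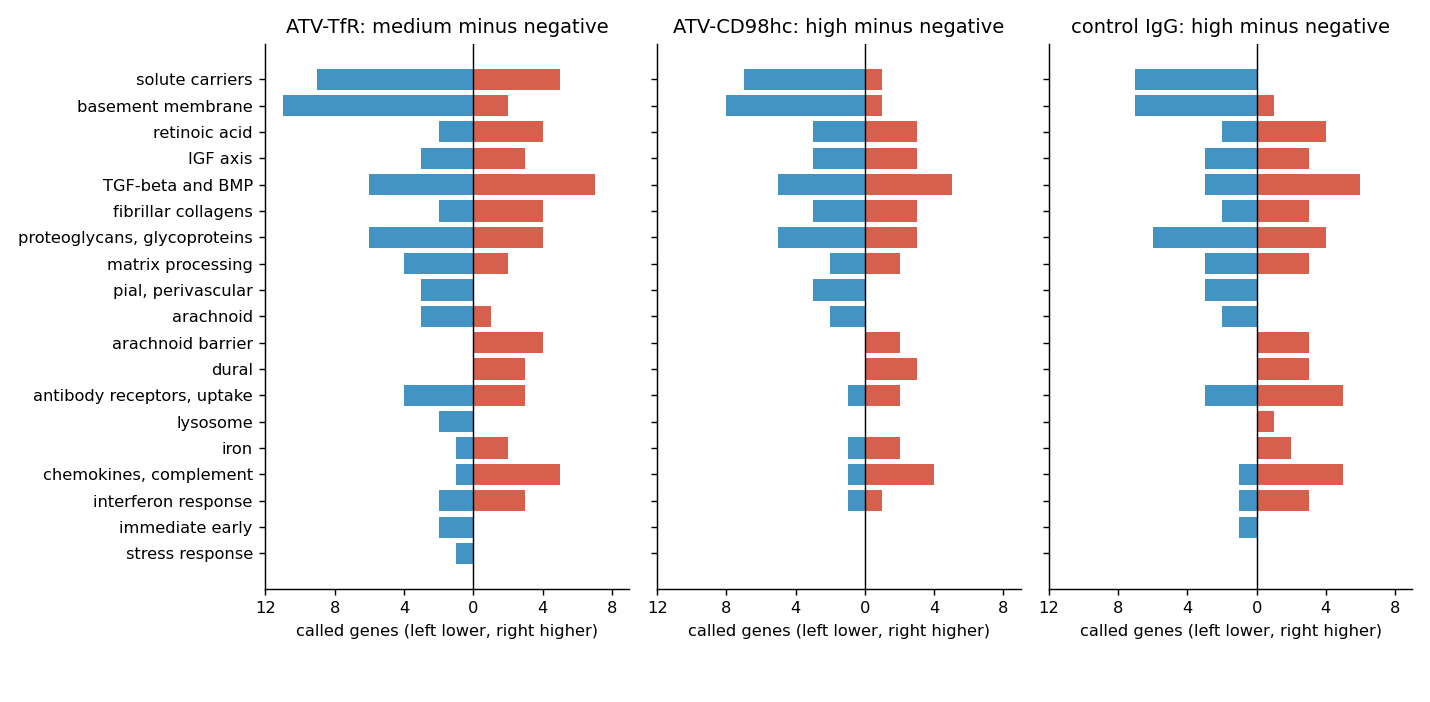
Number of called genes per list in the brightest against the negative bin of each treatment (edgeR, adjusted p below 0.05), without the genes of the member rule, with lower genes to the left and higher genes to the right of 0. Solute carriers and basement membrane extend to the left in all 3 panels (9, 7 and 7 and 11, 8 and 7 lower genes), and the arachnoid barrier and dural lists have called genes to the right only.

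Chemokine, complement and interferon genes were called in both directions. Vcam1, the adhesion molecule, was higher by 1.27 ± 0.21, 1.55 ± 0.23 and 1.58 ± 0.27. The chemokine gene Cxcl13 had 0 UMIs in all 5 negative libraries and was at 64.8 and 62.8 CPM in ATV-TfR medium, at 151 and 34.5 in control IgG high and at 49.8 and 11.9 in ATV-CD98hc high, where it did not pass (adjusted p = 0.25). Chemokine and complement genes called were 5, 4 and 5 higher and 1, 1 and 1 lower of 20. Interferon-response genes were 3, 1 and 3 higher and 2, 1 and 1 lower of 15, with Ifit2 lower in each treatment (-2.79, -3.16 and -2.48). Immediate early genes called were 2, 0 and 1 of 15 and stress genes 1, 0 and 0 of 9, all lower, against 5.43%, 4.14% and 7.16% lower over all genes. Of 19 lysosomal genes, 0, 0 and 1 were higher and 2, 0 and 0 lower. Ctss, called lower with ATV-TfR and higher with control IgG, is highest in microglia, and without the clusters led by other cell types no lysosomal gene was called.

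The genes of the target receptors were not called in the bins of their own antibody. Tfrc, the mouse transferrin receptor gene that ATV-TfR mice carry with a human part, was low in fibroblasts, at 8.12 and 4.56 CPM against 2.82 and 13.9 in the ATV-TfR medium bin (0.41 ± 0.84, adjusted p = 0.846). Slc3a2, the gene of CD98 heavy chain, was at 145 and 212 CPM in the negative bin and at 121 and 161 in the high bin with ATV-CD98hc, and these values overlapped (-0.31 ± 0.28, adjusted p = 0.603). With ATV-TfR it was lower in the medium bin (265 and 251 against 567 and 523, -1.08 ± 0.23, adjusted p = 0.00195). Fcgrt, the neonatal Fc receptor, and Lrp1, an endocytic receptor, were not called in any treatment, with changes between -0.50 and 0.44. A missing call does not show that a gene was unchanged. How the alignment treats the human part of the altered receptor genes is not given in the sources used here.

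Called higher in the bright bin of all 3 treatments were B2m, the light chain partner of Fcgrt (0.92 ± 0.21, 1.01 ± 0.25 and 1.14 ± 0.28), and Slc7a8, an amino acid transporter that pairs with CD98 heavy chain (2.03 ± 0.40, 4.68 ± 0.78 and 3.38 ± 0.59). Without the clusters led by other cell types B2m was not called with control IgG (0.78, adjusted p = 0.139), where border macrophage markers went from 19.3 to between 541 and 1034 CPM. Slc7a8 was at 5.19 and 0 CPM in ATV-CD98hc negative and at 98.0 and 67.1 in high libraries. Of 19 genes on this list 3, 2 and 5 were higher and 4, 1 and 3 lower. Of 14 iron genes 2, 2 and 2 were higher and 1, 1 and 0 lower. Heph, a ferroxidase of iron export, rose by 2.65, 2.76 and 1.68, and Ftl1, ferritin light chain, by 0.94, 1.09 and 1.80. The lower gene was Steap3, a reductase of iron (-1.27 with ATV-TfR and -1.19 with ATV-CD98hc).

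Transcripts listed as markers of other cell types moved with the bins in the same sums, and their part in the calls was not tested. The sums below leave out the genes of the member rule. In replicates 1 and 2, 6 pericyte markers summed to 7320 and 7001 CPM in the ATV-TfR negative and to 484 and 305 in the medium bin, of which Vtn alone was 6755 and 6344 against 332 and 205. All 6 had UMIs in both bins. They went from 6282 and 5401 to 443 and 1037 CPM with ATV-CD98hc and from 6110 to 98.6 and 138 with control IgG. The 6 choroid epithelial markers differed between libraries of a group, at 398 and 8101 CPM in the ATV-TfR and 12397 and 295 in the ATV-CD98hc negative bin (replicates 1 and 2), and their highest sum in a brightest bin was 4586 CPM. Vtn was at 6316 CPM in the Slc6a13 set and at 32.0 in the Alpl set. It was also a leading gene of cluster 0, at 6786 CPM and with a UMI in 97.0% of members there. That cluster was not led by markers of other cell types. The pericyte sums therefore count a gene that Slc6a13 fibroblasts carry, and how much of their fall is RNA of pericytes was not tested. The 10 endothelial markers summed to 415 to 551 CPM in negative and 808 to 1303 in high libraries of ATV-CD98hc, with Ly6c1 and Ptprb at 0 in the negative ones, and to 624 against 301 to 323 with control IgG, with Ly6c1, Slco1a4 and Ptprb at 0 in the high bin. Oligodendrocyte markers summed to 950.1 to 1340.2 against 33.8 to 62.8 with ATV-TfR. Border macrophage markers went from 19.3 to between 541 and 1034 with control IgG. Microglial markers went from 740 and 614 to 169 and 200 CPM with ATV-TfR, and from 219 to 534 and 527 with control IgG. With ATV-CD98hc they were at 213 and 257 against 222 and 170. Astrocyte markers were at 9365 and 9100 against 8903 and 9521 CPM with ATV-TfR. They were at 7838 and 9836 against 5512 and 6056 with ATV-CD98hc, and at 10172 against 6953 and 5274 with control IgG.

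Without the 373 members of the clusters led by such markers, 1182 genes were called with ATV-TfR, 684 with ATV-CD98hc and 757 with control IgG. The solute carriers still gave 9, 7 and 7 lower genes, while the higher ones went from 5, 1 and 0 to 5, 0 and 0, and the basement membrane list 9, 8 and 7 lower of 16 tested. The pial list kept its count of 3 lower genes in each treatment, and the IGF list 3 higher and 3 lower in each. Pericyte markers called fell from 5, 5 and 5 of 6 tested to 2, 1 and 2 of 5, oligodendrocyte markers from 5, 3 and 5 of 5 to 1 of 3 in each, and endothelial markers from 4, 4 and 5 of 10 to 3, 0 and 1. These markers led the clusters that were removed, so the falls follow from the removal. Lists of other genes lost calls too. With ATV-CD98hc the higher genes fell from 3 to 1 of the collagens, from 2 to 1 of the arachnoid barrier list and from 3 to 2 of the dural list, and the lower genes from 2 to 1 of the arachnoid fibroblast list. With control IgG they fell from 4 to 2 of the retinoic acid genes, from 5 to 2 of the antibody receptor and uptake genes and from 3 to 1 of the interferon genes. With ATV-TfR they fell from 5 to 3 of the chemokine and complement genes, and the interferon genes gave 2, 2 and 1 higher and 1, 1 and 1 lower.

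The change over bins differed between the transport vehicles in 49 genes (0.409% of 11977), 14 higher (0.117%) and 35 lower (0.292%), when the medium bin was set against the negative bin in both. The rule gene Slc6a13 is 1 of the 49. Igf2 differed by -3.86 ± 0.55 (adjusted p = 0.000675), with 657 and 798 CPM in the medium bin of ATV-CD98hc against 67.6 and 109 with ATV-TfR. Aldh1a2 differed by -5.02 ± 0.69 (141 and 165 against 0 and 11.6), Slc6a20a by -3.19 ± 0.46 (437 and 405 against 42.2 and 41.9), and Slc22a8 by -3.29 ± 0.48 (158 and 276 against 22.5 and 18.6), each with an adjusted p of 0.000675. Bmp6, Bmp7, Fmod, Slc13a4 and Col15a1 were also among the lower genes. Of 17 solute carriers 4 were called lower, and of 14 retinoic acid genes 2. Of the 35 lower genes 14 had their highest level in fibroblasts, and of the 14 higher genes 9 had it in astrocytes. The higher genes included 4 of 7 astrocyte markers (Aldoc, Clu, Ntsr2 and Slc1a2), and the cluster led by astrocyte markers held 16.2% of ATV-TfR medium and 4.0% of ATV-CD98hc medium members, against 3.19% and 7.58% in the negative bins.

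The share of Slc6a13 fibroblasts in the medium bins was 36.7% with ATV-CD98hc and 4.73% with ATV-TfR, and its part in these differences was not tested, since a comparison within 1 kind could not be fitted. Leaving out ATV-TfR replicate 1 left 3 calls and leaving out replicate 2 left 7, all lower, while without ATV-CD98hc replicate 1 or 2 there were 102 and 28. Without the clusters of other cell types 17 genes were called, all lower. With the replicate number as a block, which marks the animal pool, 120 were called.

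ATV-CD98hc and control IgG differed in their change from negative to high in 22 genes (0.184% of 11977, all higher, with 2 opposing genes of the member rule among them), and in 41 with the replicate block. Slc6a20a (4.35 ± 0.70, adjusted p = 0.00635) and Bmp6 (4.06 ± 0.68, adjusted p = 0.00674) were among them. Another 4 were endothelial markers, of 10 tested (Ly6c1, Ly6a, Spock2 and Ptprb), and 2 were pericyte markers, of 6. By class, 14 of the 22 (63.6%) had their highest level in endothelium, 3 in pericytes and 2 (9.09%) in fibroblasts. Without the clusters of other cell types 3 genes were called, Slc6a20a (4.55 ± 0.79) and Bmp6 (4.15 ± 0.73) among them, each with an adjusted p of 0.0275. Without ATV-CD98hc replicate 2 or control IgG replicate 1 there were 14 and 8 calls. Slc7a5, the partner of CD98 heavy chain in amino acid transport, was at 57.3 and 80.5 CPM in the ATV-CD98hc high bin and had 0 UMIs in the control IgG high bin (at least 24.2-fold higher when 3 UMIs over the group are taken as the limit; adjusted p = 0.0236 for the difference of changes), and it is highest in endothelium.

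In the high bin itself, 49 genes differed between ATV-CD98hc and control IgG (0.409% of 11977), 39 higher (0.326%) and 10 lower (0.0835%), and 91 with the replicate block. Of the 49, 3 were genes of the member rule. Slc6a20a was at 95.01 and 89.44 CPM against 0 and 6.28 (4.56 ± 0.58, adjusted p = 0.000255), Bmp6 at 75.4 and 55.1 against 4.81 and 3.14 (4.04 ± 0.57, adjusted p = 0.00064) and Ranbp3l, a leading gene of cluster 1, at 110 and 56.6 against 0 and 6.28 (4.41 ± 0.73, adjusted p = 0.00254). Slc6a13 fibroblasts were 11.3% ± 2.13 of members in the ATV-CD98hc and 1.38% ± 0.374 in the control IgG high bin (SD, n = 2), and the part of this in the differences was not tested. Of 10 endothelial markers 6 were higher, and 3 of 6 microglial and 3 of 7 border macrophage markers were lower. By class, 24 of the 39 higher genes (61.5%) had their highest level in endothelium and 3 (7.69%) in fibroblasts. Of the 10 lower genes 5 had it in microglia and 5 in border macrophages. Among Alpl fibroblasts alone 8 genes were called, of which 2 were opposing genes of the member rule. The other 6 were Slco1a4, Slc7a5 and Ablim1, higher, and Mrc1, H2-Ab1 and Arhgap15, lower. There Bmp6 differed by 5.06 ± 2.70 (adjusted p = 1.0), and Slc6a20a was not tested. Without the clusters of other cell types 4 genes were called, Slc6a20a (4.39 ± 0.65) and Bmp6 (3.98 ± 0.61) among them, each with an adjusted p of 0.0045. There were 27, 29 and 30 without ATV-CD98hc replicate 2, control IgG replicate 1 and control IgG replicate 2.

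In the negative bin the fibroblasts of both knock-in lines could be compared among cells sorted as free of dye. The test called 4 genes (0.0334% of 11977), 3 higher with ATV-TfR (0.025%) and 1 lower (0.00835%), and 10 with the replicate block. Slc3a2 was at 567 and 523 CPM with ATV-TfR and 145 and 212 with ATV-CD98hc, and the libraries did not overlap (1.64 ± 0.26, adjusted p = 0.00916). The control IgG negative library of C57BL/6 mice had 420 CPM. The ATV-CD98hc mice carry the altered Slc3a2, so its level between lines depends on how the alignment treats the human part, which was not tested. Among Slc6a13 fibroblasts alone the difference was 1.39 (adjusted p = 0.163), and without the clusters of other cell types no gene was called. The other called genes included Mal, of oligodendrocytes, and Myh11, of smooth muscle, which was at 462 CPM in ATV-CD98hc replicate 1 and 0 in replicate 2. Without ATV-TfR replicate 1, and likewise without replicate 2, 1 gene was called, and without ATV-CD98hc replicate 1 or 2 there were 27 and 9. Oligodendrocyte markers summed to 950.1 to 1340.2 CPM with ATV-TfR and 212 to 223 with ATV-CD98hc.

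Each pool held 1 male and 1 female, and 1143 members could be assigned to the female and 1012 to the male by transcripts of the sex chromosomes, with 531 unassigned. With the genes used for that assignment left out, no gene passed the test between the sexes by edgeR (0 of 10180, with 284 at an unadjusted p below 0.05), while DESeq2 called 1 and edgeR with no filter on low counts 46.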

How the data were processed

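Droplet single-cell RNA libraries of AF647-sorted mouse brain cells were analysed from the deposited UMI counts per gene and barcode. Per the file headers the authors made these counts with Cell Ranger 7.1.0, and the submitters' processing notes also name Seurat 4 and 5 and the builds mm10 and GRCm38. Barcode, gene and sample index files, deposited beside the counts, gave names and pools only.

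The kept barcodes, members and 34 gene lists follow rules chosen with earlier results of these data known. Raw counts of members were summed per library, the unit of replication, for libraries with at least 20 members. The edgeR 4.0.16 quasi-likelihood test (R 4.3.3, limma 3.58.1, TMM scaling) was fitted to all groups together, with Benjamini-Hochberg adjustment over all genes tested and calls below 0.05. DESeq2 1.42.0 was an alternative. Members were clustered with scanpy 1.11.5 (2000 variable genes, 30 components, 15 neighbours, Leiden resolution 0.5). Doublets were scored with Scrublet and kept, and an alternative left out high scores. Trends over bins used exact permutation tests of the logit share. Named per comparison were up to 10 called genes in each direction with the largest fold among those whose libraries did not overlap and whose higher group had a mean of at least 50 CPM, up to 4 called members of each list by smallest adjusted p, and Tfrc, Slc3a2, Slc7a5, Fcgrt and Lrp1. Ablim1, Arhgap15, Foxc1, Zic1, Tcf21 and the genes leading sub-clusters fall outside this rule and were chosen after their values were seen. Some genes that the rule names are not reported here. Coordinates come from GENCODE M21 and promoters from RefSeq, both GRCm38, and 353 promoters matched 354 of 487 genes called alike in all treatments (1 symbol stands for a pair of gene IDs). Genes of the member rule were left out of list counts, a change made after the values were seen.

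Replicate numbers mark the animal pool that was split over the 4 bins, so same-numbered bins of a treatment are paired. Deviations of same-numbered libraries from their group means correlated at 0.0582 to 0.574 over 6344 genes. The tests were first tried on simulated counts. There a 4-fold change was recovered in 85%, 77% and 65% of cases in the bin comparisons of ATV-TfR, ATV-CD98hc and control IgG. A 2-fold change was recovered in 28%, 14% and 13%, so a gene that was not called may still differ. Intervals of shares cover counting error only. The edgeR tests over bins judge a difference by a spread between libraries estimated over all groups together. A group has 2 pools, or 1 for the control IgG negative bin, which adds no spread of its own. The main fits do not pair the bins of a pool. The permutation p-values come from rearranged bin labels within a treatment and measure no spread between pools.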

Additional observations from a re-analysis of the deposited data

Results flagged for a closer look

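In the fibroblast sums, 49 genes changed differently from the negative to the medium bin with ATV-TfR than with ATV-CD98hc, by a test of the difference itself. These fell to 17 without the clusters led by markers of other cell types and to 3 and 7 without ATV-TfR replicate 1 and 2, and 4 of the 49 were astrocyte markers. Another 22 changed differently from the negative to the high bin with ATV-CD98hc than with control IgG. Without the same clusters 3 were called, and without ATV-CD98hc replicate 2 or control IgG replicate 1 there were 14 and 8. Of the 22, 4 were endothelial and 2 pericyte markers, without counting genes of the member rule. Counted with those genes, 14 of the 22 had their highest level in endothelium and 2 in fibroblasts. The number of fibroblasts among barcodes outside the endothelial class changed differently over the bins too: the log2 change from negative to high with ATV-TfR differed by -5.58 from that with ATV-CD98hc and by -5.32 from that with control IgG. In each of these comparisons treatment and genotype coincide and cannot be told apart.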

How the results depend on the processing

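Over the alternatives tried, 6660 of the values of single genes kept their direction and side of the threshold, 701 lost and 32 gained a call, and 21 reversed. With all kept barcodes as the denominator, the number of fibroblasts changed by 0.17 between the high and negative bins of ATV-CD98hc, and its difference from control IgG reversed to -3.98, while the change with ATV-TfR was -5.41 and its difference from control IgG -9.57. With 1 pool left out the trend slopes were -1.26 to -1.09 for ATV-TfR and 0.955 to 1.06 for ATV-CD98hc, in a design too small to pass the threshold.

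Called genes with ATV-TfR were 449 in female cells and 456 to 1634 with 1 pool left out. With ATV-CD98hc they were 241 to 933 with 1 pool left out. With control IgG they were 348 in female cells, 452 in male cells, 757 without the clusters led by markers of other cell types (mixed clusters) and 888 to 1582 with 1 pool left out. The difference in bin change between ATV-TfR and ATV-CD98hc gave 77 genes with DESeq2, 245 with no filter on low counts, 88 without high Scrublet scores, 27 where rule genes had at least 4 times the UMIs of opposing genes, 17 without mixed clusters and 3 to 102 with 1 pool left out. That between ATV-CD98hc and control IgG gave 113 with no filter, 8 under the rule of 4 times, 3 without mixed clusters, 35 from the compared libraries alone and 8 to 18 with 1 pool left out. The negative bin gave 81 with no filter, 2 without high Scrublet scores, 0 under the rule of 4 times, 0 without mixed clusters, 9 among Slc6a13 fibroblasts and 1 to 27 with 1 pool left out. The high bin gave 168 with no filter, 24 under the rule of 4 times, 4 in female cells, 6 in male cells, 4 without mixed clusters, 8 among Alpl fibroblasts and 27 to 54 with 1 pool left out. Between the sexes DESeq2 called 1 gene, no filter 46, and 1 pool left out 0 to 1.

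The replicate block, set within each treatment, pairs the bins of a pool. With it 120 genes were called for the difference between ATV-TfR and ATV-CD98hc, 41 for that between ATV-CD98hc and control IgG, 10 in the negative bin and 91 in the high bin. The last 2 comparisons are between different pools, where the block pairs nothing and takes out spread between pools. The block moved no other count by over 1.5 times (1954, 1220 and 1639 over the bins of the 3 treatments).

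Genes that reversed were mostly markers of other cell types. Without mixed clusters these were Rgs5 (1.62 with ATV-TfR, 7.12 with ATV-CD98hc, 1.26 with control IgG), Aldoc with ATV-TfR (-0.38), Dgkb (2.44) and Slc7a5 (-2.17) with ATV-CD98hc, Cxcl14 (0.18), Cldn5 (0.67) and H2-Ab1 (-0.66) with control IgG, and C1qb (0.30) and H2-Ab1 (0.29) in the high bin. Under the rule of 4 times Rgs5 was at 0.61 with ATV-CD98hc, 1.71 with control IgG and -1.10 for their difference. Cldn5 was at -4.34 with ATV-TfR in female cells and at 0.48 with control IgG in male cells, and H2-Ab1 at -0.51 there. C1qb with control IgG was at -0.27 without high Scrublet scores. With 1 pool left out Myh11 ranged from -6.62 to 3.47 over the ATV-CD98hc bins and from -7.20 to 4.39 between ATV-TfR and ATV-CD98hc in the negative bin, positive without ATV-CD98hc replicate 1. Slc1a3 in the high bin was at -0.32 among Alpl fibroblasts. The cause was not tested for these changes. A minimum of 50 members per library, cells of 1 sex, and leaving out control IgG replicate 2 gave no value where they emptied a group. The ATV-TfR high bin is limited by its number of members (7 and 10), not by their depth (medians of 8285 and 8120.5 UMIs).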

Other observations

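The 17 fibroblasts of the ATV-TfR high bin entered no gene comparison. Their libraries had Slc6a20a at 226 and 129 CPM, above the 42.2 and 41.9 of the medium bin, and Igfbp5 at 1866 and 3123 CPM. Cluster 6, led by Postn and Bmper, held 29.4% of these 17 members, and the 5 clusters led by markers of other cell types held 41.2%.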
